A study of Mus musculus with 5 samples.

Results

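The heat shock and endoplasmic reticulum (ER) chaperone genes are a set of 40 mouse genes picked by name for their known roles, 17 heat shock and chaperonin genes that act outside the ER and 23 genes of ER folding and the unfolded protein response. The choice was made with earlier results of these data known, so counts over each group are descriptive and not a blind test. Of the 31626 genes in the deposited tables, 37 of the 40 names were found in the name column. A further 2 were found by Ensembl gene ID under another name, Manf (named Armet in the tables) and Dnaja1 (named Dnaja1-ps). Hspa1b had no row under that name and is not analysed here, and 2 rows both carry the name Hspa1a, so that 40 rows were read. The libraries come from common myeloid progenitors, blood progenitors able to form granulocytes, monocytes, red cells and platelets, of strain C57Bl/6. All cells started from loxP-flanked Mll1 (MLL1 flox/flox) and had been transformed with MSCV-MN1-IRES-GFP, a retrovirus that carries the leukaemia gene MN1 and a green fluorescent marker. All were grown in M3234 medium supplemented with serum, IL3, IL6 and SCF. The 3 control libraries were made from cells transduced with a control, and the 2 knockout libraries, labelled MLL1 -/-, from cells transduced with Cre recombinase, all sorted on day 7. The effect of Cre alone cannot be told apart from that of losing Mll1, since no Cre-treated culture with intact Mll1 is used here. The labels do not say whether replicates were separate mice or cultures, so p-values reflect the spread of these 5 libraries alone, which may be technical.

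Chaperones keep newly made or damaged proteins from aggregating. In the cytosol and nucleus the transcription factor HSF1 induces the Hsp70, Hsp90, Hsp110 and J-protein genes when proteins unfold. In the ER, the entry point of secreted, membrane and granule proteins, the sensors IRE1, ATF6 and PERK respond to unfolded proteins. Spliced XBP1 and cleaved ATF6 then switch on chaperones, disulfide isomerases and the genes that send misfolded proteins for degradation. Developing granulocytes load large amounts of protease and peroxidase through the ER into granules, so the comparison asks whether the ER genes rose in the knockout libraries, in which granule genes were high.

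Values are FPKM, fragments counted relative to gene length and to the library's mapped fragments, which puts genes of different length on a common scale. With no counts deposited, the depth of a library is unknown. Steps between low values put the FPKM value of a single read in each other library at 0.979 to 1.018 of that in control replicate 1. Differences were tested with limma, a linear model fitted to log2(FPKM + 1) of the 11780 genes that reached 1 FPKM in 2 or more libraries. A gene was called at a Benjamini-Hochberg adjusted p under 0.05. Differences are knockout minus control on that log2 scale, on which changes of low genes come out too small. Throughout, values are listed for control replicates 1 to 3 and then for knockout replicates 1 and 2. Mll1 itself had 9.67, 7.28 and 7.19 FPKM under control, against 6.22 and 5.32 FPKM under knockout. Both knockouts lay below every control, with p = 0.1 in a two-sided exact permutation test, the smallest that 10 splits allow, and an adjusted p of 0.158 in limma. Control replicate 1 stood apart from the other controls and was the lowest control for 49.3% of all genes tested and the highest for 33.2%. All 6 progenitor markers were present in every library. Both knockouts lay below all controls for Kit, Myb, Cebpa and Cd34 and above them for Gata2 and Mpo. Cd34 fell from 624 ± 53.2 FPKM (SD, n = 3) to 214 ± 3.42 FPKM (SD, n = 2), with a limma adjusted p of 0.00657. Gata2 rose from 50.1 ± 2.17 to 65.6 ± 2.54 FPKM (adjusted p = 0.0439), Mpo rose as well, and Kit, Myb and Cebpa were not called.

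The 23 ER genes of the set stood higher in the knockout libraries as a group, by modest amounts. A list of 19 other ER folding enzymes, given below, did not, with a median log2 difference of 0.003. All 23 passed the filter. Creld2, Sdf2l1 and Dnajb11 rose, with log2 differences of 0.70, 0.51 and 0.48, and none fell. Across all genes tested 3.82% were called higher and 5.97% lower, 9.79% in either direction, beside 3 of 23 here. Both knockouts lay above all controls for 16 of the 23, against 22.9% of all genes, and below all controls for 4, against 29.4%. The median log2 difference of the group was 0.30, against -0.028 for all genes. An unadjusted p under 0.05 was reached by 17 of the 23 (13 higher, 4 lower), against 29.8% of all genes, and 8 of the 20 uncalled genes had an adjusted p between 0.05 and 0.1. In these bulk libraries a change in the share of cells of a type and a change in RNA per cell cannot be told apart.

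**Figure D1:**
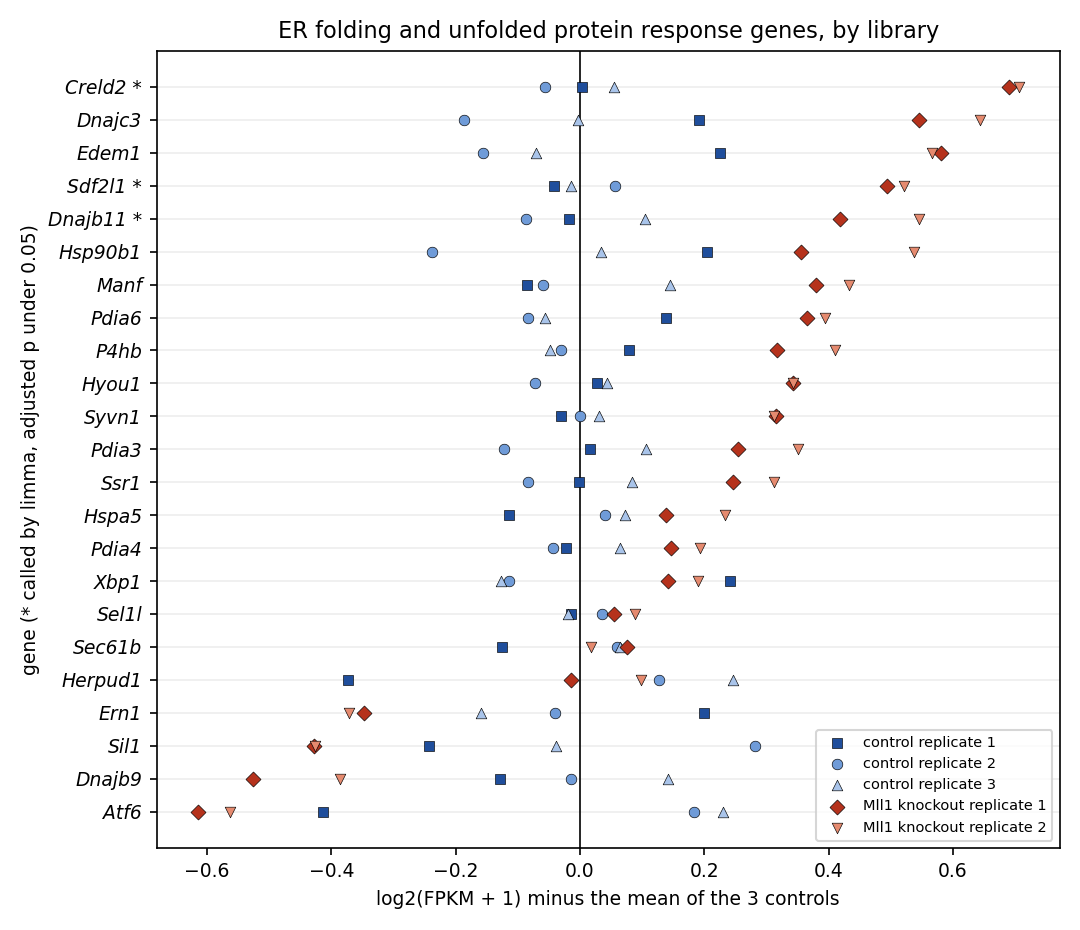
Level of each of the 23 ER genes in each library, as log2(FPKM + 1) minus the mean of the 3 controls (horizontal axis), genes ordered by the difference between groups; squares, circles and upright triangles are controls, diamonds and inverted triangles knockouts, and asterisks mark genes called by limma. Both knockouts lie to the right of all controls for 16 genes, and to the left for Atf6, Dnajb9, Sil1 and Ern1.

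Creld2, an ER stress-induced disulfide isomerase family protein, had the largest difference of the 40 genes. It stood at 41.97, 40.2 and 43.5 FPKM under control, against 68.2 and 68.9 FPKM under knockout. The groups were far apart relative to their spread, a 1.64-fold ratio of means and a log2 difference of 0.70 ± 0.071 (SE; limma adjusted p = 0.0135). Sdf2l1, which binds the J-proteins of the ER and keeps clients soluble, stood at 102, 110 and 104 FPKM under control, against 149 and 152 FPKM under knockout. Its difference was 0.51 ± 0.072 (SE; adjusted p = 0.0232). Dnajb11, its J-protein partner, also called ERdj3, delivers clients to the ER Hsp70. Dnajb11 stood at 102, 96.8 and 111 FPKM under control, against 138 and 151 FPKM under knockout, with a difference of 0.48 ± 0.093 (SE; adjusted p = 0.0422). The partner genes Sdf2l1 and Dnajb11 thus had ratios of means of 1.43 and 1.40. None of these 3 genes shares exon bases with a gene on the opposite strand or has a near-identical copy in the GENCODE annotation searched.

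The ER Hsp70 and Hsp90 chaperones lay higher in both knockouts without being called. Hspa5, or BiP, the central Hsp70 of the ER, stood at 595, 662 and 676 FPKM under control, against 709 and 756 FPKM under knockout. The ranges did not overlap, but the gap was small beside the spread, with a log2 difference of 0.19 (95% interval -0.090 to 0.46, adjusted p = 0.31). Hsp90b1, or GRP94, the ER Hsp90 that folds integrins and Toll-like receptors, stood at 576, 424 and 512 FPKM under control, against 641 and 726 FPKM under knockout (log2 difference 0.45, adjusted p = 0.144). Hyou1, a large Hsp70-like protein that exchanges nucleotide on BiP, stood at 117, 109 and 119 FPKM under control, against 146 FPKM in both knockouts. Its adjusted p was 0.0541 and its difference 0.34. Hsp90b1 shares exon bases with an opposite-strand pseudogene, and whether the authors' counting used strand is not given in the sources used here.

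The remaining cochaperones of BiP split. Dnajc3, a J-protein that also inhibits the kinase PERK, stood at 41.8, 31.9 and 36.3 FPKM under control, against 53.6 and 57.5 FPKM under knockout (log2 difference 0.59, adjusted p = 0.0528). Dnajb9, or ERdj4, the J-protein that holds IRE1 inactive and is induced by XBP1, stood at 31.0, 33.7 and 37.6 FPKM under control and lower, 23.3 and 25.8 FPKM, under knockout (log2 difference -0.46, adjusted p = 0.0634). Sil1, the second nucleotide exchange factor of BiP, stood at 15.1, 22.1 and 17.5 FPKM under control and at 13.1 FPKM in both knockouts. So the exchange factors Hyou1 and Sil1 lay on opposite sides of the controls, and so did the J-proteins Dnajb11 and Dnajb9; the difference between such pairs was not tested.

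Apart from Creld2, given above, 4 members are disulfide isomerase genes, whose products form and rearrange disulfide bonds. All 4 had both knockouts above all controls. That held for 22.9% of all genes. Outside the members, the isomerase gene Txndc5 was called lower, as given below. P4hb, the founding isomerase, stood at 682, 632 and 624 FPKM under control, against 804 and 859 FPKM under knockout (log2 difference 0.36, adjusted p = 0.0852). Pdia6, which also restrains IRE1, stood at 363, 311 and 317 FPKM under control, against 425 and 434 FPKM under knockout (0.38, adjusted p = 0.0827). Pdia3, which works on glycoproteins held by calnexin and calreticulin, had means of 576 ± 45.7 and 709 ± 33.6 FPKM. Pdia4 stood at 98.7, 97.3 and 105 FPKM under control, against 111 and 115 FPKM under knockout, the smallest difference of the 4 at 0.17 (95% interval -0.019 to 0.36). Manf, a small ER protein induced and secreted under ER stress, stood at 312, 318 and 366 FPKM under control, against 431 and 447 FPKM under knockout, with a difference of 0.41 and an adjusted p of 0.0773.

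None of the genes of the sensors and their factors was called. Atf6, the membrane-bound transcription factor of one branch, stood at 16.6, 25.6 and 26.5 FPKM under control, against 14.3 and 14.8 FPKM under knockout. Both knockouts were lower than every control, with a log2 difference of -0.59 (95% interval -1.14 to -0.036, adjusted p = 0.149), and control replicate 1 lay near the knockouts. Ern1, which encodes the sensor IRE1, stood at 13.0, 10.8 and 9.88 FPKM under control, against 8.54 and 8.39 FPKM under knockout (-0.36, adjusted p = 0.139). Xbp1, whose mRNA IRE1 splices, stood at 138, 108 and 107 FPKM under control, against 129 and 134 FPKM under knockout, so that the groups overlapped. A gene-level FPKM does not separate spliced from unspliced Xbp1, and mRNA levels do not measure cleavage of ATF6.

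Genes of ER-associated degradation, which return misfolded proteins to the cytosol for the proteasome, differed among themselves. Edem1, which marks misfolded glycoproteins for disposal, stood at 53.5, 40.8 and 43.4 FPKM under control, against 68.7 and 67.9 FPKM under knockout (log2 difference 0.57, adjusted p = 0.0586). Syvn1, or HRD1, the ubiquitin ligase of the pathway, stood at 23.9, 24.4 and 25.0 FPKM under control, against 30.7 and 30.6 FPKM under knockout (0.31, adjusted p = 0.0508). Its adaptor Sel1l had means of 24.4 ± 0.542 and 25.6 ± 0.443 FPKM, with a 95% interval of -0.10 to 0.24. Herpud1, an early and strongly induced gene of ER stress, stood at 83.6, 119 and 129 FPKM under control, against 108 and 116 FPKM under knockout, within the control range. Of the members that bring proteins into the ER, Ssr1, a subunit of the translocon-associated complex, stood at 322 ± 18.7 and 391 ± 12.7 FPKM. Sec61b, a subunit of the channel, stood at 195 ± 14.4 and 202 ± 5.72 FPKM with overlapping ranges. Sec61b has near-identical copies, and Syvn1, Manf, Pdia3, Pdia6, Sil1 and Dnajb9 share exon bases with opposite-strand genes.

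Promoters of the ER genes were searched for the elements through which ATF6 and XBP1 act, since many of these genes lay higher together. RefSeq windows of the 250 bases before the start (GRCm38.p6) were matched by symbol for 32 of the 40 genes; Hspa8, Hsp90aa1, Hsp90ab1, Hsf1, Hyou1, Atf6, Manf and Sil1 had no entry. The ER stress response element was searched on both strands as CCAAT and CCACG with 9 unspecified bases between them, and its second form as ATTGG and CCACG with 1 unspecified base between them. The first form stood in 6 of 19 ER windows, against 0.113% of 32851 windows of all genes. They were those of Creld2, Dnajc3, Hsp90b1, Hspa5, Pdia6 and Syvn1. The second form stood in that of Herpud1 and in 0.0304% of all windows. The XBP1 core TGACGTGG was in none of the 19 and in 0.563% of all. The ER genes were picked by name for roles in ER folding and this response, so these shares say nothing about the 5 libraries. The stretches below show each match with 20 bases on either side, 5′ to 3′ on the gene's strand, with the fixed bases of the element in capitals; that of Hsp90b1 holds both of its matches, and a match that opens with CGTGG is read on the other strand.
Creld2, chr15:88819500-88819558, plus strand: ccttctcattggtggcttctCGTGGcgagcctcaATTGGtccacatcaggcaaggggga
Dnajc3, chr14:118937807-118937865, plus strand: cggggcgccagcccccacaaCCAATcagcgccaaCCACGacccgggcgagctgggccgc
Hspa5, chr2:34772005-34772063, plus strand: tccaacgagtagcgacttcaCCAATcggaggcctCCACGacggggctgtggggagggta
Pdia6, chr12:17266471-17266529, plus strand: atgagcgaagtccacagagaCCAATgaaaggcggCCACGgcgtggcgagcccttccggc
Syvn1, chr19:6046512-6046570, plus strand: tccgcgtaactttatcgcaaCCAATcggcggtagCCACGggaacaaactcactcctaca
Hsp90b1, chr10:86705513-86705676, minus strand: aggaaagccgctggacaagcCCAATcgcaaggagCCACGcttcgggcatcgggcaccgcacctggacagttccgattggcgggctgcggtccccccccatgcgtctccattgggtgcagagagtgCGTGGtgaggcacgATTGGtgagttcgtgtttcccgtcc
Herpud1, chr8:94386357-94386407, plus strand: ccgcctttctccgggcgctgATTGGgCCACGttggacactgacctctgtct

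Both knockouts lay above all controls for the 6 genes with the first form, as for 16 of the 23 ER genes and 22.9% of all genes. The log2 differences of the 6 ran from 0.19 for Hspa5 to 0.70 for Creld2, the only one called. Herpud1, with the second form, had 0.041. Whether the difference goes with the element was not tested. Sdf2l1 and Dnajb11, which rose, hold neither form in this window, so the differences were not limited to genes with a match. The window of Sdf2l1 is shown whole, as that of the called ER gene with the largest difference among those without an exact match. It has no capitals because it holds no match. A match is a string of letters and not evidence that a factor bound there in these cells.
Sdf2l1, chr16:17132384-17132633, minus strand: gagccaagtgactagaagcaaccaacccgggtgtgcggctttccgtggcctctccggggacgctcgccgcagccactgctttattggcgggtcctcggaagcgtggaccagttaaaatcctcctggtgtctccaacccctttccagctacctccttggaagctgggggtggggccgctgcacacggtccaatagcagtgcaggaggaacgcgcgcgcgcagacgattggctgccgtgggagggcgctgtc

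Heat shock and chaperonin genes outside the ER held 1 call, a share near that of all genes. Of the 17, 14 passed the filter, 1 rose (Hsph1), and none fell in limma. That call is 7.14% of the 14, against 9.79% of all genes called in either direction. Hsph1 and Hspd1 were the 2 of the 14 at an unadjusted p under 0.05, both higher, against 29.8% of all genes. Both knockouts lay above all controls for 6 of the 14, against 22.9% of all genes, and below for none, against 29.4%. The median log2 difference was 0.22, beside 0.30 for the ER genes; the gap between the groups was not tested. Control replicate 1 was the lowest control for 12 of the 14 genes and for 9 of the 23 ER genes, against 49.3% of all genes. Without that library Hsph1 and Dnaja1 were called higher and Bag3 lower, and Hsp90ab1, Cct2 and Dnajb1 changed sign to small negative differences.

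**Figure D2:**
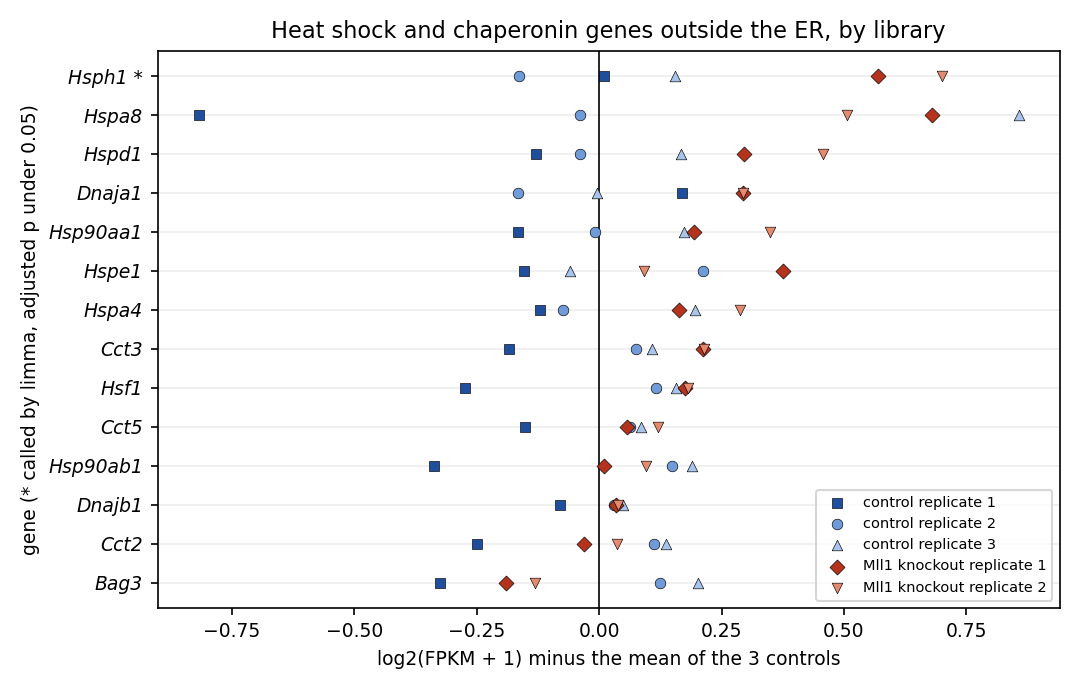
Level of the 14 heat shock and chaperonin genes that passed the filter in each library, as log2(FPKM + 1) minus the mean of the 3 controls (horizontal axis), with symbols as in the plot of the ER genes. Hsph1 alone is marked as called, and control replicate 1 (dark squares) is the lowest control for 12 of the 14.

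Hsph1, the Hsp110 that reloads Hsp70 with ATP and helps dissolve aggregates, stood at 45.3, 40.05 and 50.2 FPKM under control, against 67.3 and 73.8 FPKM under knockout. The groups did not overlap, with a log2 difference of 0.64 ± 0.12 (SE; limma adjusted p = 0.0391). Its relative Hspa4 stood at 194 ± 23.7 and 226 ± 13.7 FPKM with overlapping ranges. Hspa8, the Hsp70 made at all times, stood at 25.1, 43.8 and 82.4 FPKM under control, against 72.7 and 64.3 FPKM under knockout. The controls alone spanned the knockouts, and 5 annotated pseudogenes carry near-identical copies of Hspa8, so its values are uncertain.

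Other members were low or were not called. Of the 2 rows named Hspa1a, the inducible Hsp70, the higher stood at 0.0292, 0.0727 and 0.0595 FPKM under control, against 0 and 0.0430 FPKM under knockout, and the other did not exceed 6.53e-07 FPKM. Hspa1a and Hspa1b are near-identical, and how the authors treated reads that map to both is not known here, so these low values are uncertain. Hspb1, a small heat shock protein, did not exceed 0.104 FPKM. Dnajb1, the heat-induced J-protein, stood at 37.7, 40.7 and 41.3 FPKM under control, against 40.9 and 41.0 FPKM under knockout, with a narrow 95% interval of -0.15 to 0.23. Bag3, a cochaperone of stressed cells, stood at 19.5, 26.9 and 28.5 FPKM under control, against 21.5 and 22.4 FPKM under knockout, and Hsf1 at 25.4, 33.6 and 34.7 FPKM under control, against 35.1 and 35.3 FPKM under knockout.

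Among the Hsp90 and chaperonin genes none was called. Hsp90ab1, the Hsp90 made at all times and the most abundant of the 40, stood at 1911, 2679 and 2754 FPKM under control, against 2434 and 2581 FPKM under knockout, inside the control range. Hsp90aa1, the inducible form, stood at 114, 127 and 144 FPKM under control, against 146 and 163 FPKM under knockout (log2 difference 0.27, adjusted p = 0.224). Hspd1, the Hsp60 chaperonin of mitochondria, stood at 99.1, 106 and 122 FPKM under control, against 133 and 149 FPKM under knockout (0.38, adjusted p = 0.109). Its lid Hspe1 stood at 118 ± 16.0 and 138 ± 19.3 FPKM with overlapping ranges. Both lie head to head and share exon bases, and each matches another annotated gene nearly identically. Of the cytosolic chaperonin subunits, which fold actin and tubulin, Cct2, Cct3 and Cct5 had log2 differences of 0.0033, 0.21 and 0.088, and the J-protein gene Dnaja1 stood at 22.0 ± 2.68 and 27.1 ± 0.00580 FPKM (adjusted p = 0.17); Dnaja1 shares exon bases with Smu1 on the opposite strand and, like Hsp90aa1, has 3 near-identical pseudogenes.

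The heat shock element, to which HSF1 binds, was searched on both strands as GAA, TTC and GAA with 2 unspecified bases between neighbours. It stood in 2 of 20 windows of the heat shock and chaperonin genes and in 0.466% of all windows. Both were those of Hspd1 and Hspe1 and lie in the promoter that these genes share, so they are a single locus; it is shown in the direction of Hspe1, with the fixed bases of the overlapping matches in capitals. Neither start of Hsph1 has an exact match in its window. These genes too were picked by name for their known roles, so the shares say nothing about the libraries.
Hspe1, chr1:55088039-55088096, plus strand: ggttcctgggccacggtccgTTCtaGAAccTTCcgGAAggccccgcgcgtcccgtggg

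**Figure D3:**
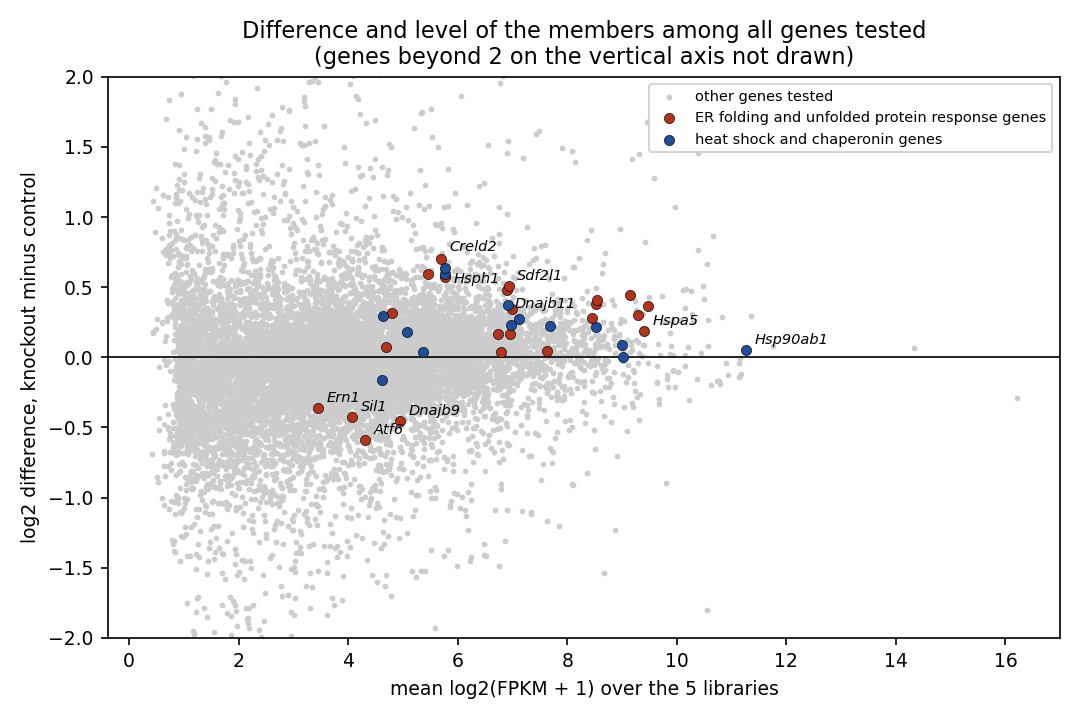
Log2 difference between knockout and control (vertical axis) against mean log2(FPKM + 1) over the 5 libraries (horizontal axis) for the 11780 genes tested, with the ER genes in red and the heat shock and chaperonin genes in blue. Genes beyond 2 in either direction are not drawn; all genes run from -5.98 to 5.09. The members lie between -0.59 and 0.70, and Creld2 is the highest and Atf6 the lowest of them.

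Other genes of the same pathways were read from lists of related genes, beside 9.79% of all genes called, 3.82% higher and 5.97% lower. Of 19 other ER folding enzymes, 1 rose and 1 fell, or 10.5%, near the share of all genes, with a median log2 difference of 0.003. Fkbp11, an ER prolyl isomerase of secretory cells, rose from 61.7 ± 2.97 to 93.4 ± 5.75 FPKM (adjusted p = 0.0225), and Txndc5, a thioredoxin-domain isomerase, fell from 114 ± 5.70 to 84.7 ± 4.87 FPKM (adjusted p = 0.0429). The most abundant gene of this list, Calr, the lectin chaperone calreticulin, was not called (limma adjusted p = 0.0771). It stood at 1269, 1112 and 1323 FPKM under control, against 1691 and 1817 FPKM under knockout. Dnajc10 lay the other way, at 65.7, 53.6 and 52.6 FPKM under control, against 38.6 and 38.1 FPKM under knockout. It was not called either (limma adjusted p = 0.0511). Both knockouts lay above all controls for 6 of the 19 genes and below for 4, against 22.9% and 29.4% of all genes. Of 14 genes of N-glycosylation, 2 rose and none fell in limma, Stt3b, a catalytic subunit of the transferase, from 72.1 ± 5.48 to 106 ± 0.478 FPKM (adjusted p = 0.0309) and Mogs, the first trimming glucosidase, from 61.8 ± 3.79 to 86.0 ± 1.29 FPKM (adjusted p = 0.0338). None of 21 genes of entry into the ER was called in limma. An unadjusted p under 0.05 was reached by 2 of them, against 29.8% of all genes. The smallest p of that list was that of the channel gene Sec61a1 (201 ± 12.8 and 249 ± 0.518 FPKM, limma adjusted p = 0.0892).

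Of 19 other degradation genes, 1 rose and 2 fell. Derl2, a membrane component of the retrotranslocation machinery, rose from 22.0 ± 1.65 to 30.6 ± 0.486 FPKM (adjusted p = 0.0417). The ER lectin gene Erlec1 fell from 12.4 ± 0.415 to 9.29 ± 0.270 FPKM (adjusted p = 0.0467) and Ngly1, a deglycosylase of the cytosol, from 19.7 ± 1.21 to 11.3 ± 0.566 FPKM (adjusted p = 0.0163). In the PERK branch, which slows translation and induces ATF4, 2 of 12 genes fell and none rose. Nupr1, a stress-induced chromatin protein, fell from 52.8 ± 11.8 to 10.4 ± 1.22 FPKM (adjusted p = 0.0107), and Ppp1r15a, the phosphatase subunit that restores translation, from 77.7 ± 16.9 to 36.4 ± 3.34 FPKM (adjusted p = 0.0417). Atf4 stood at 643, 1050 and 1047 FPKM under control, against 664 and 757 FPKM under knockout, and Ddit3, or CHOP, at 55.9, 101 and 97.6 FPKM under control, against 107 and 112 FPKM under knockout. Control replicate 1 held the lowest control value of both genes, and neither was called. For Asns control replicate 1, at 65.3 FPKM, lay below both knockouts, at 67.5 and 82.4 FPKM. Without that library 6 of the 12 genes were called lower (Asns, Atf3, Atf4, Nupr1, Ppp1r15a and Trib3), against 18.8% of all genes. Eif2ak3, which encodes PERK, was called higher, against 12.4% of all genes. Atf4 then had a log2 difference of -0.56 (adjusted p = 0.0185), and Ddit3 one of 0.13 (adjusted p = 0.119).

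The counts of other lists also moved without control replicate 1, when 12.4% of all genes were called higher and 18.8% lower. The other ER folding enzymes then had 3 higher and 2 lower, the N-glycosylation genes 2 and 1, the genes of entry into the ER 4 and 0, and the other degradation genes 5 and 2. The cytosolic chaperones had 1 higher and 3 lower, and so did the mitochondrial ones. Primary granule cargo had 7 higher, secondary and tertiary granule cargo 6 higher and 1 lower, mature neutrophil markers 4 higher, mast cell and basophil markers 3 higher, erythroid markers 5 higher, monocyte and macrophage markers 2 higher and 3 lower, and immediate early genes 5 lower.

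Other chaperones outside the ER showed no calls. None of 33 cytosolic chaperones and cochaperones and none of 8 mitochondrial ones was called in limma. An unadjusted p under 0.05 was reached by 4 and 0 of them, against 29.8% of all genes. Their median log2 differences were 0.095 and 0.056. The smallest adjusted p was that of Hsf2, the second heat shock factor, at 8.96 ± 0.514 and 6.59 ± 0.258 FPKM (adjusted p = 0.0586). Pfdn4, a subunit of the cochaperone prefoldin, had an adjusted p of 0.0937 and Hspa2, a testis-enriched Hsp70, of 0.0991. Handling-related immediate early genes, read as a sign of stress during preparation, had a negative difference in 10 of 12 genes tested. Egr1 was called, and their summed level ran from 380.5 to 823 FPKM under control and from 338 to 473 FPKM in the knockouts. Their part in the heat shock results was not tested.

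**Figure D4:**
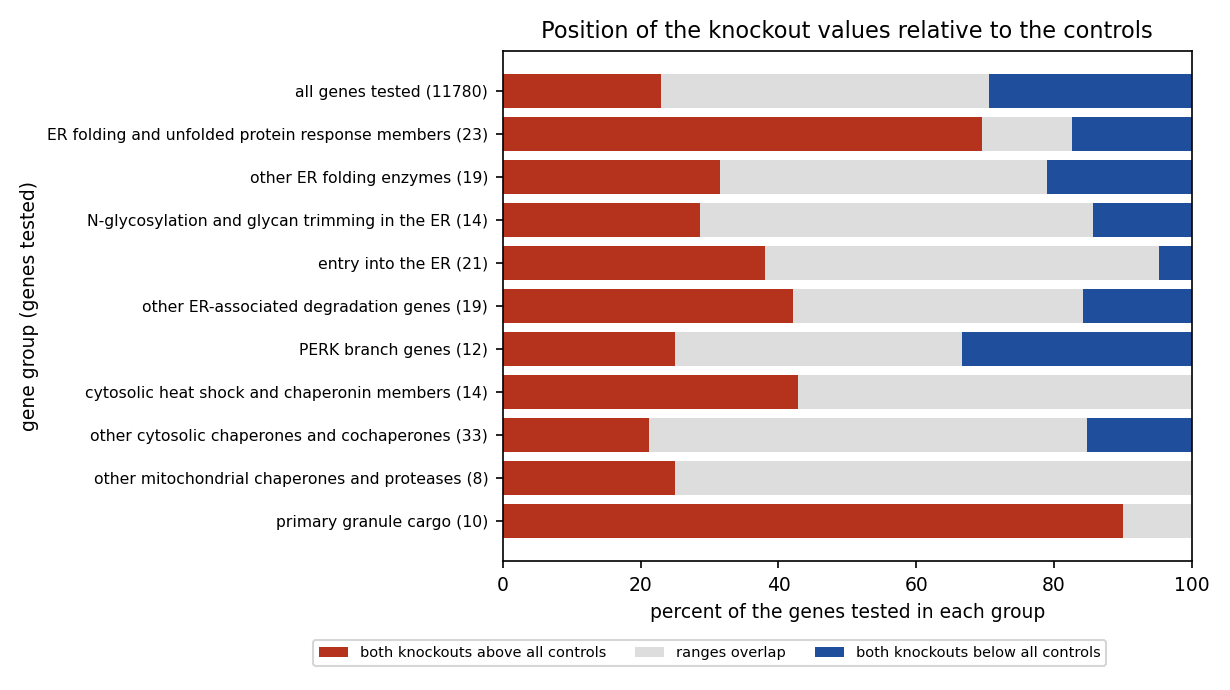
Percent of the genes tested in each group (horizontal axis; number tested in brackets) for which both knockouts lay above all controls (red), below all controls (blue) or overlapped them (grey). The 23 ER members had 16 above and 4 below, the 19 other ER folding enzymes 6 and 4, and all 11780 genes 22.9% and 29.4%.

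Granule genes were set beside the ER genes library by library. Of the 10 primary granule cargo genes that passed the filter, 5 rose and none fell, against 3.82% and 5.97% of all genes. Their median log2 difference was 0.70. Mpo, which encodes myeloperoxidase, stood at 1303, 694 and 775 FPKM under control, against 2385 and 2509 FPKM under knockout (log2 difference 1.46, adjusted p = 0.0469). Prtn3, the serine protease proteinase, stood at 368, 407 and 405 FPKM under control, against 1027 and 1069 FPKM under knockout (1.41, adjusted p = 0.00684). The protease gene Prss57, the protease inhibitor gene Serpinb1a and Srgn, the proteoglycan core that packs granule proteins, rose by 0.68, 0.71 and 0.49 on the log2 scale. Elane, or neutrophil elastase, stood at 635, 325 and 370 FPKM under control, against 1086 and 1241 FPKM under knockout (adjusted p = 0.052). Lyz2, or lysozyme, stood at 289, 26.3 and 34.1 FPKM under control, against 300.01 and 227 FPKM under knockout, so that control replicate 1 matched the knockouts. Ctsg, Ctsc and Cd63 had log2 differences of 0.26, 0.24 and 0.31 and were not called, and Lyz1 was below the filter.

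Secondary and tertiary granule cargo, made later in granulocyte maturation, did not separate the groups in this way. Lcn2 and Hp rose, at 100.1 ± 31.6 and 261 ± 2.39 FPKM (adjusted p = 0.0367) and at 85.8 ± 9.65 and 151 ± 12.9 FPKM (adjusted p = 0.0266). Camp stood at 42.9, 1.35 and 2.01 FPKM under control, against 33.3 and 32.4 FPKM under knockout, and Ngp at 106, 4.05 and 4.52 and at 64.7 and 58.3 FPKM. Chi3l3 stood at 42.5, 0.746 and 1.35 FPKM under control, against 18.2 and 18.8 FPKM under knockout, and Ltf at 4.67, 0.366 and 0.304 and at 2.76 and 2.81 FPKM. Control replicate 1 thus exceeded both knockouts in these 4 genes. Mmp8 had a log2 difference of -0.027, and Mmp9 was below the filter.

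**Figure D5:**
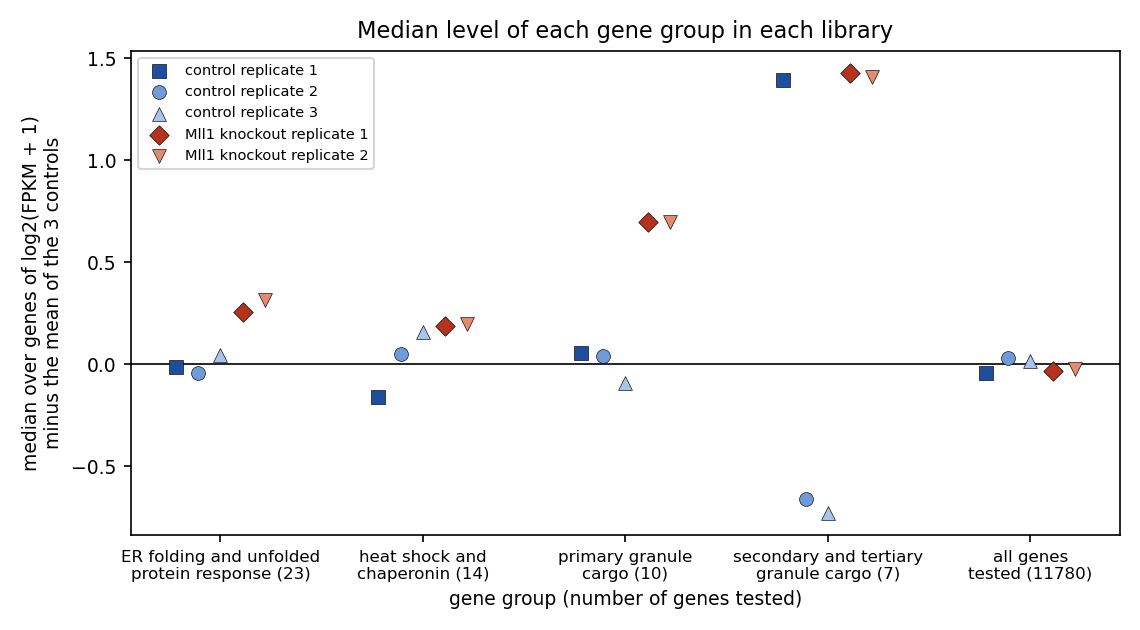
Median over the genes of each group of log2(FPKM + 1) minus the mean of the 3 controls (vertical axis) in each of the 5 libraries, with the number of genes tested in brackets. For the ER genes the knockouts stand at 0.26 and 0.31 and the controls between -0.043 and 0.044; in secondary and tertiary granule cargo control replicate 1 stands at 1.39 beside knockouts at 1.43 and 1.41.

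For both the ER genes and the primary granule genes the 2 knockouts had the highest medians. The median of the ER genes relative to the controls was -0.015, -0.043 and 0.044 in the controls, against 0.26 and 0.31 in the knockouts. That of primary granule cargo was 0.055, 0.038 and -0.091 in the controls and 0.69 and 0.70 in the knockouts. That of secondary and tertiary granule cargo was 1.39 in control replicate 1, -0.66 and -0.73 in the other controls, and 1.43 and 1.41 in the knockouts. The late granule median of control replicate 1 was near those of the knockouts, but its genes scattered: Camp, Ngp, Chi3l3 and Ltf lay above both knockouts and Lcn2, Hp and Mmp8 below both. Its ER median lay among those of the other controls. With 5 libraries no correlation was computed, and these medians describe the libraries without a test.

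Single ER genes differed in where control replicate 1 lay. It was the highest control for 7 of the 23, namely Hsp90b1, Pdia6, P4hb, Xbp1, Ern1, Dnajc3 and Edem1. For Xbp1 it exceeded both knockouts, at 138 against 129 and 134 FPKM. Creld2, Sdf2l1 and Dnajb11 did not share this, with control replicate 1 between the other controls for Creld2 and Dnajb11 and lowest for Sdf2l1. Without control replicate 1, 12 of the 23 ER genes were called higher and 3 lower (Atf6, Dnajb9 and Sil1), when 12.4% of all genes were called higher and 18.8% lower. The 12 were Creld2, Sdf2l1, Dnajb11, Dnajc3, Edem1, Hsp90b1, Hyou1, Manf, P4hb, Pdia6, Syvn1 and Xbp1.

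The calls of the 4 members that rose depended on single libraries. Creld2 lost its call without control replicate 2 (adjusted p = 0.0592) and without either knockout library (0.174 and 0.189), and Sdf2l1 and Dnajb11 also without control replicate 3 (0.0773 and 0.0777). Hsph1 lost it without control replicate 2 or 3 (0.089 and 0.0662) or either knockout. With 1 knockout library left, that library is assumed to vary like the controls. Over the libraries left out, the log2 differences ran from 0.67 to 0.73 for Creld2, 0.49 to 0.54 for Sdf2l1, 0.42 to 0.55 for Dnajb11 and 0.55 to 0.71 for Hsph1. Dnajb11 and Hsph1 also lost their calls after quantile normalization (adjusted p = 0.064 and 0.052) and with no filter on low values (0.0747 and 0.0777). Median-ratio scaling called 6 ER genes higher in place of 3, adding Hyou1, Manf and Syvn1, and shifted the split over all genes from 450 higher and 703 lower to 597 and 621.

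Markers of other cells differed from list to list in direction and size. Their counts stand beside 3.82% of all genes called higher, 5.97% called lower and 29.8% at an unadjusted limma p under 0.05. B cell and plasma cell markers, whose cells are rich in ER, were near 0: 1 of 10 passed the filter (Sdc1, not called), the sum over the list ran from 1.18 to 2.72 FPKM under control and from 2.25 to 2.96 FPKM in the knockouts, and Pou2af1 was listed at 0 in every library. Mast cell and basophil markers, of secretory cells, summed to 540.1 to 815 FPKM under control, against 1184 and 1205 FPKM under knockout. Cpa3 held most of each sum, at 432, 633 and 581 FPKM under control, against 950 and 965 FPKM under knockout, and was not called. Without control replicate 1 Cpa3 was called higher (log2 difference 0.66, limma adjusted p = 0.00936), when 12.4% of all genes were. In the fit of all 5 libraries, of the 6 of 9 mast cell and basophil markers tested, Mcpt8 and Il1rl1 rose, and Ms4a2 overlapped the controls. Both knockouts lay above all controls for 5 of the 6, against 22.9% of all genes. Mature neutrophil markers, led by S100a8 and S100a9, summed to 675 to 6106 FPKM in the controls, highest in control replicate 1, and to 22035 and 20312 FPKM in the knockouts, with none of 6 called in limma and 2 at an unadjusted p under 0.05. Erythroid markers summed to 21.9 to 48.4 FPKM and 39.6 to 41.3 FPKM, with Gata1, Klf1 and Alas2 called higher of 6 tested. Monocyte and macrophage markers summed to 35.4 to 39.6 and 25.5 to 25.7 FPKM, with Irf8 and Ccr2 called lower of 5. Klf4 also lay below all controls in both knockouts, while Cd14 and Fcgr1 lay above them, with log2 differences of 1.12 and 0.62 that were not called. The part of these cells in the ER result was not tested.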

How the data were processed

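RNA sequencing data of 3 control and 2 knockout libraries were read as deposited: the authors' files give 1 FPKM value per Ensembl gene and library. Per the submitters' processing notes, the tools were GSNAP, Cuffdiff, SAMtools and CASAVA 1.8.2, and the build mm9; libraries were stranded, per the labels' protocols. Not given in the sources used here: the annotation, the treatment of multiply mapped reads and any use of strand. In 16 genes a library held 999999999, a failed estimate, and these genes were left out. Members and lists were chosen with earlier results of these data known. Values for every library were given for members called by limma and for a fixed set of members that define the arms of both groups. They were also given for Dnajc3, P4hb, Sil1, Edem1 and Syvn1, which were neither called nor in the fixed set. From related lists the called members or up to 3 with the smallest p were named, and from the granule lists every member tested. Further genes were named after their values were seen. They were Calr, Dnajc10, Atf4, Asns, Atf3, Trib3, Eif2ak3, Kit, Myb, Cebpa, Cd14, Fcgr1, Klf4, Ddit3, S100a8, S100a9, Cpa3 and Ms4a2. limma 3.58.1 in R 4.3.3 was run on log2(FPKM + 1) with an intensity trend. The fit was also tried on simulated data with noise drawn independently for each gene and library. Such data hold no library that stands apart like control replicate 1, so the trial cannot show how the fit handles that library. Alternatives covered the pseudocount, filter, scaling, empirical Bayes trend, replicate block and each library left out; members found by name alone was added after seeing the data. GENCODE M21 (GRCm38) gave symbols, exon overlaps and, with BLAST 2.17.0, near-identical copies (at least 95% identity over 200 bases). No coordinate of the files' build is printed. Promoter sequences are RefSeq's, on GRCm38.p6.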

Additional observations from a re-analysis of the deposited data

How the results depend on the processing

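The limits here are 5 libraries, unknown absolute depth, and a control library that stood apart. Of 481 values (37 members, 13 alternatives), 427 kept their direction and side of the threshold, 24 lost the call and 20 gained it; of the 20, all but 6 came without control replicate 1. The 10 that changed sign belong to 5 uncalled members. After quantile normalization Hsp90ab1 stood at -0.059, Cct2 at -0.062 and Herpud1 at -0.019. Without control replicate 1 the values were -0.116 for Hsp90ab1, -0.003 for Dnajb1, -0.121 for Cct2, -0.146 for Herpud1 and -0.016 for Sec61b. Over all libraries left out these 5 reached 0.148, 0.061, 0.072, 0.165 and 0.079. Without knockout replicate 2 they were -0.03 for Cct2 and -0.015 for Herpud1. With no filter on low values 238 genes were called higher, 259 lower, and 0 heat shock members higher. Median-ratio scaling gave 6 ER members higher and a median over all genes of 0.005. Quantile normalization gave 0 heat shock members higher, an ER median of 0.217 and a median over all genes of 0.007. Over the libraries left out, genes called higher ran from 0 to 1434 and lower from 0 to 2178, heat shock members from 0 to 2 higher and 0 to 1 lower, ER members from 0 to 12 higher and 0 to 3 lower, and the ER median from 0.242 to 0.329. The replicate block, in which control replicate 3 has no partner and adds nothing, called 12 genes higher and 43 lower, with 0 heat shock and 0 ER members higher (adjusted p of 0.101 for Creld2, 0.151 for Sdf2l1 and Dnajb11, 0.12 for Hsph1). Without the empirical Bayes trend Dnajb11 had an adjusted p of 0.0506. Same-numbered libraries deviated with correlations of 0.037 and 0.012, so the labels' numbers are not taken to pair the libraries. The cause of these shifts was not tested.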
